A study of Mus musculus with 23 samples.

Results

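The 10 genes described here are known from natural killer cells and were followed through dendritic cells sorted from mouse spleen. They are Ncr1, Klrb1c, Klre1, Klrd1, Nkg7, Prf1, Gzma, Gzmb, Eomes and Tbx21, 10 of the 47729 genes counted, and all 10 were found by symbol. They were chosen by name and with earlier results of these data known, in particular their level in untreated DC3 cells against the other libraries, so that contrast is described here without a test. Each library held RNA from cells of 1 sort gate of the spleens of 1 pool of wild type BALB/c mice. The gates were DC1a (CD8hi CD172-), DC1b (CD8Int CD172+), DC2 (CD8lo CD172hi) and DC3 (CD8- CD172lo). The mice were either untreated or had TLI, a treatment the labels name by these letters only, and the labels give no age. Untreated mice gave 8 libraries, from pools 1 and 2 with all 4 gates, and all 8 are batch 1. Mice with TLI gave 15 libraries, 7 of batch 1 (pools 1 and 2, with no DC2 library of pool 2 analysed here) and 8 of batch 2 (pools 3 and 4). Batch is thus shared between treatments in batch 1 only, and a pool of TLI mice has nothing but its number in common with an untreated pool. The sources name CD11c, B220, MHC class II, CD8a and CD172a as the stain for the sort, and p-values measure the spread between libraries, of which up to 4 come from the same pool of mice.

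Natural killer cells are lymphocytes that kill infected or transformed cells without a rearranged antigen receptor. They read their targets through activating and inhibitory receptors, many of them C-type lectins of the Klr gene cluster. They kill by releasing granules that hold perforin, which opens the target's membrane, and granzymes, proteases that start its death, under the control of the T-box factors T-bet and EOMES. Most of these genes are also used by cytotoxic T cells and by other innate lymphoid cells, and natural killer cells can carry CD11c, the integrin used here to sort dendritic cells.

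Sequence upstream of the genes is shown for the receptor gene Ncr1 and the granzyme genes Gzma and Gzmb. In untreated mice these 3 were higher in DC3 than in every other library, and their windows lie outside the annotated span of the gene itself. Overlap of the windows with other genes was not examined. Each line is 250 bases before an annotated RefSeq start (GRCm38.p6), 5′ to 3′ on the gene's strand, and capitals mark matches to the T-box motif AGGTGT or the Runx motif TGTGGT on either strand. T-box factors and Runx factors are transcription factors of cytotoxic lymphocytes. The windows lie at chr7:4337465-4337714 (plus strand) for Ncr1, chr13:113100982-113101231 (minus strand) for Gzma and chr14:56262335-56262584 (minus strand) for Gzmb.
Ncr1: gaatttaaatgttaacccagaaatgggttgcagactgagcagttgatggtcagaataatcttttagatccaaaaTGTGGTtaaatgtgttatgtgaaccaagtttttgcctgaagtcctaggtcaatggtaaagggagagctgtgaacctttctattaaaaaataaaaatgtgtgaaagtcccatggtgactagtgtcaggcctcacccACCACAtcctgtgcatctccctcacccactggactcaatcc
Gzma: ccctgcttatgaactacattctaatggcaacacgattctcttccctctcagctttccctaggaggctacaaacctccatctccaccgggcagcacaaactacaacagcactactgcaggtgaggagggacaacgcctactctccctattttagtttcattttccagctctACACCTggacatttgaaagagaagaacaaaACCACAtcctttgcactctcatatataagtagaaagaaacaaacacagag
Gzmb: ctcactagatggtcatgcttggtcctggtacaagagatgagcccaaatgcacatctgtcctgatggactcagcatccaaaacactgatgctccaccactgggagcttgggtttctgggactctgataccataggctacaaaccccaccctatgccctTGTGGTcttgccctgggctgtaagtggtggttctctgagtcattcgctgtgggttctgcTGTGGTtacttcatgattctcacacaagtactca
RefSeq gave a promoter for 9 of the 10 genes, in 11 windows, and none was used for Klrd1. The Runx motif stood in a window of 7 of these 9 genes (Klrb1c, Klre1, Ncr1, Nkg7, Prf1, Gzma and Gzmb), against 4614 of all 32851 promoters of that length. The T-box motif stood in 3 of the 9 (Nkg7, Prf1 and Gzma), against 3887 of 32851. A gene was counted if any of its windows matched, whereas the count over all promoters is by single window, so the units differ. Klre1 had the Runx motif in 1 window and not in its other. The windows of Eomes and Tbx21 held neither, and a match is a description of the letters, not of a bound site.

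Levels are CPM, counts scaled to the same total in each library. Library totals lay between 19256447 and 36997890 counts, so that the floor used here, 3 counts, lay between 0.0811 and 0.156 CPM. This floor covers counting error only. The sorted cells carried the transcripts of dendritic cells, with all 8 dendritic cell identity genes above the floor in every gate. In untreated DC3 these included Flt3, the growth factor receptor of dendritic cells, at 125 and 176 CPM, and Itgax, which encodes CD11c, at 142 and 221 CPM. Xcr1, a chemokine receptor of CD8+ dendritic cells, read 170.1 and 145 CPM there, and Sirpa, which encodes CD172a, 1.09 and 0.235 CPM. Cd8a read 0.410 CPM in untreated DC3 of pool 1 and 41.6 CPM in pool 2, above the floor in both libraries of the CD8- gate.

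The genes fell into 3 patterns. Ncr1, Nkg7, Gzma and Gzmb, with Klrb1c at lower levels, were present in untreated DC3 and in every TLI library of batch 1, below 1 CPM in the other untreated gates except for Gzma in DC1b of pool 1, and highest in TLI DC3 of pool 1. Prf1, Eomes and Tbx21 were below 30 CPM everywhere and at the floor in most libraries. Klrd1 and Klre1 were present in nearly all gates and did not follow the others.

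**Figure D1:**
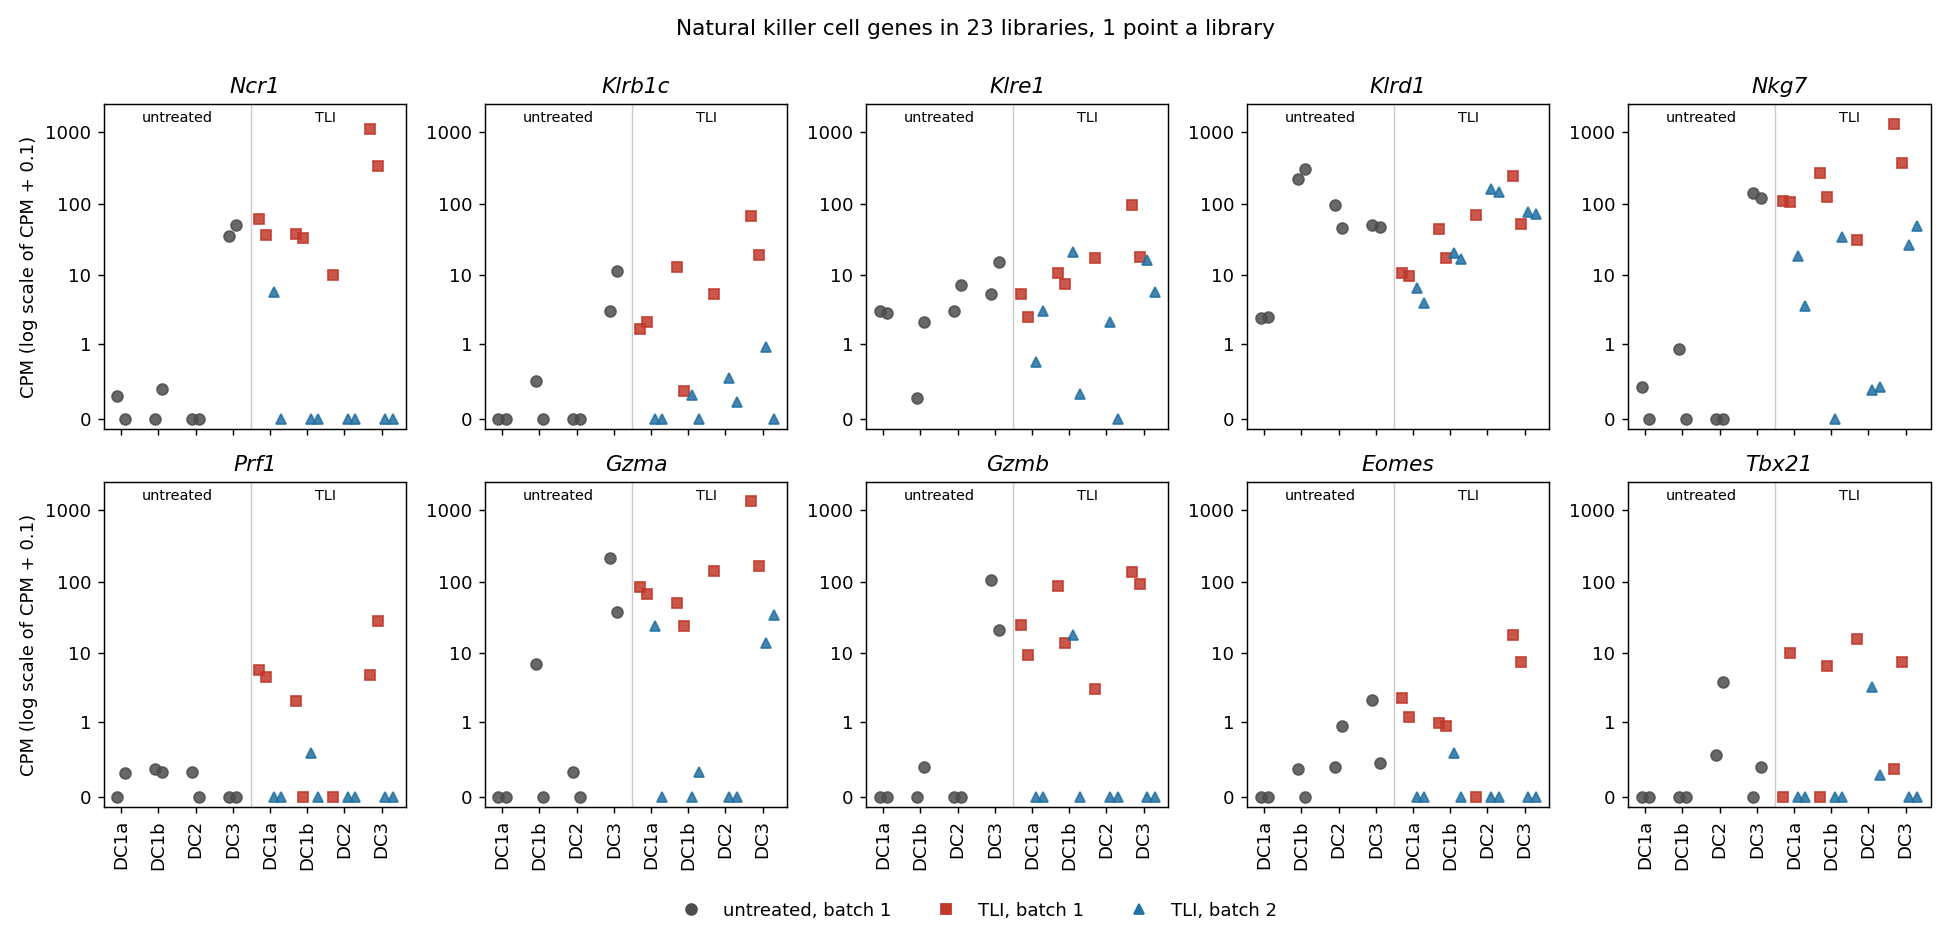
CPM of the 10 genes in the 23 libraries, 1 point a library, on a log scale of CPM + 0.1, by gate (x axis) and treatment. Squares are TLI batch 1, triangles TLI batch 2 and circles untreated libraries; the highest Ncr1 value is 1112 CPM in TLI DC3 of pool 1, and Ncr1 is at 0 in both batch 2 DC3 libraries.

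Ncr1 (ENSMUSG00000062524, chr7:4337724-4345164, plus strand) encodes NKp46, an activating receptor that marks natural killer cells and some other innate lymphoid cells. In untreated mice it read 35.2 and 50.4 CPM in DC3, a mean of 42.8 ± 10.8 CPM (SD, n = 2), and at most 0.160 CPM, 4 counts, in the 6 other libraries. After TLI it read 1112 CPM in DC3 of pool 1 and 340.5 CPM in DC3 of pool 2, the 2 highest values of the 23. The groups did not overlap: the lowest untreated DC3 value was far above every other untreated library and below both of these. In the other TLI gates of batch 1 Ncr1 read 61.4 and 36.5 CPM in DC1a, 38.3 and 33.4 CPM in DC1b and 9.95 CPM in DC2. In batch 2 it had no count in 7 of 8 libraries, DC3 included, and 5.73 CPM in DC1a of pool 3. Of the 10 genes this one had the sharpest division between the batches.

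Klrb1c (ENSMUSG00000030325, chr6:128778485-128789215, minus strand) encodes NK1.1, the receptor used to identify natural killer cells in several mouse strains. It overlaps the gene Gm44511 on the same strand, so reads could be split between them. Untreated DC3 read 3.09 and 11.6 CPM, against at most 0.235 CPM in the other untreated libraries. TLI DC3 read 68.1 and 19.3 CPM in batch 1, and 0.914 and 0 CPM in batch 2. The TLI libraries of batch 1 outside DC3 ran from 0.147 CPM (DC1b, pool 2) to 13.2 CPM (DC1b, pool 1), so both ends of that range were DC1b.

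Klre1 (ENSMUSG00000050241, chr6:129577905-129585827, plus strand) encodes a lectin-like receptor chain of natural killer cells. It was above the floor in 21 of 23 libraries. Untreated DC3 read 5.42 and 15.4 CPM and overlapped untreated DC2, at 3.05 and 7.22 CPM. TLI DC3 of pool 1 was highest at 95.0 CPM, followed by DC1b of pool 3 at 21.5 CPM, DC3 of pool 2 at 18.1 CPM and DC3 of pool 3 at 16.4 CPM. Klre1 thus had no division between gates beyond that 1 library.

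Klrd1 (ENSMUSG00000030165, chr6:129591782-129598775, plus strand) encodes CD94, the partner chain of the NKG2 receptors. It was the only member above the floor in all 23 libraries. Untreated DC1b was highest, at 220.02 and 308 CPM, followed by untreated DC2 at 97.7 and 46.6 CPM, untreated DC3 at 49.9 and 46.7 CPM, and untreated DC1a at 2.44 and 2.51 CPM. DC2 and DC3 overlapped, and the other steps did not. After TLI, DC1b read 45.1, 17.6, 20.5 and 16.7 CPM in pools 1 to 4, and DC2 read 70.4, 159.9 and 148 CPM in pools 1, 3 and 4. DC3 read 246, 52.3, 78.1 and 73.0 CPM after TLI, and DC1a read 10.9, 9.63, 6.68 and 3.99 CPM. DC1a was the lowest gate in untreated and TLI mice alike, while DC1b was the highest gate in untreated mice only. The mice are BALB/c and the reference genome is from another strain, and the Klr genes have similar neighbours, so the division of reads among them is uncertain.

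Nkg7 (ENSMUSG00000004612, chr7:43437073-43438249, plus strand) encodes a membrane protein of cytotoxic granules. Untreated DC3 read 141 and 120.2 CPM, a mean of 130.6 ± 14.8 CPM (SD, n = 2), and the other 6 untreated libraries at most 0.848 CPM. TLI DC3 read 1304 and 370.3 CPM in batch 1 and 26.8 and 48.9 CPM in batch 2, the latter both below untreated DC3. Nkg7 was thus above the floor in all 6 DC3 libraries, unlike Ncr1. The other gates of batch 1 read 110.2 and 105 CPM in DC1a, 266 and 125 CPM in DC1b and 31.3 CPM in DC2. In batch 2 DC1a read 18.6 and 3.59 CPM, DC1b 0 and 34.9 CPM, and DC2 0.151 and 0.172 CPM.

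Gzma (ENSMUSG00000023132, chr13:113093825-113100981, minus strand) encodes granzyme A, a trypsin-like protease of the granules. Untreated DC3 read 214 CPM in pool 1 and 37.6 CPM in pool 2, and the highest other untreated library was DC1b of pool 1 at 6.92 CPM. TLI DC3 of pool 1 read 1330.1 CPM, the highest value of any of the 10 genes, and TLI DC3 of pool 2 read 164 CPM, below untreated DC3 of pool 1. In batch 2 DC3 read 14.02 and 34.7 CPM, and only DC1a of pool 3, at 24.4 CPM, reached that range outside DC3. Batch 1 gates other than DC3 ran from 24.0 CPM (DC1b, pool 2) to 142 CPM (DC2, pool 1), so the TLI batches overlapped.

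Gzmb (ENSMUSG00000015437, chr14:56258838-56262260, minus strand) encodes granzyme B, a protease that activates caspases. Untreated DC3 read 106 and 20.99 CPM, and the other untreated libraries at most 0.160 CPM. TLI DC3 of batch 1 read 136 and 92.4 CPM, the latter below untreated DC3 of pool 1. Both DC3 libraries of batch 2 had no count. Outside DC3 the TLI values were 24.5 and 9.52 CPM in DC1a, 87.1 and 13.7 CPM in DC1b and 3.10 CPM in DC2 of batch 1, and in batch 2 18.2 CPM in DC1b of pool 3 and 0 in the other 5 libraries. Of the granule genes, Gzmb in TLI DC3 of batch 1 was closest to untreated DC3, with means in a ratio of 1.80.

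Prf1 (ENSMUSG00000037202, chr10:61297833-61304680, plus strand) encodes perforin. It had no count in either untreated DC3 library, which allows at most 0.137 and 0.118 CPM, and no untreated library had more than 3 counts. Counts above 3 were found in 6 of 23 libraries. These were TLI DC3 of pools 2 and 1 at 28.7 and 4.83 CPM, DC1a of pools 1 and 2 at 5.80 and 4.52 CPM, DC1b of pool 1 at 2.08 CPM and DC1b of pool 3 at 0.305 CPM. Untreated DC3 therefore held both granzymes with no perforin read, at granzyme levels of 20.99 CPM or more.

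Eomes (ENSMUSG00000032446, chr9:118478212-118486132, plus strand) encodes a T-box factor of natural killer cell maturation. It overlaps Gm33460 on the other strand, and no source says that strand was used in counting, so reads of the pair cannot be told apart. Untreated DC3 read 2.14 and 0.196 CPM and overlapped untreated DC2, at 0.163 and 0.883 CPM. TLI DC3 of batch 1 read 17.9 and 7.57 CPM and was above all 21 other libraries, the next being TLI DC1a of pool 1 at 2.32 CPM. In batch 2 Eomes had no count in 7 of 8 libraries.

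Tbx21 (ENSMUSG00000001444, chr11:97098071-97115331, minus strand) encodes T-bet, the other T-box factor. It was above the floor in 8 of 23 libraries, and 4 of these 8 were among the 5 DC2 libraries. Untreated DC2 read 0.285 and 3.95 CPM, above the 6 other untreated libraries, which reached at most 0.157 CPM. In TLI batch 2 a DC2 library, of pool 3, was the one above the floor, at 3.28 CPM. The highest of all were TLI DC2 of pool 1 at 15.6 CPM, TLI DC1a, DC3 and DC1b of pool 2 at 10.1, 7.42 and 6.64 CPM, and untreated DC2 of pool 2 at 3.95 CPM. TLI DC3 of pool 1, which had the most Ncr1, Nkg7 and Gzma, had 3 Tbx21 counts, and untreated DC3 had 0 and 4.

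Counted over the members, untreated DC3 was above all 6 other untreated libraries for 5 of 10 (Ncr1, Klrb1c, Nkg7, Gzma and Gzmb), as it was for 6.03% of the 19597 genes passing the filter on low counts, a contrast that entered the choice of the members. Against all 21 other libraries, untreated DC3 was highest for 0 of 10, where 1.09% of genes had this order. TLI DC3 of batch 1 was above untreated DC3, 2 libraries against 2, for 7 of 10 (all but Gzma, Gzmb and Tbx21), with 13.0% for all genes. TLI DC3 of batch 1 was above all 21 other libraries for 4 of 10 (Ncr1, Klrb1c, Nkg7 and Eomes), with 0.592% for all genes. No member had all 4 TLI DC3 libraries above the 11 other TLI libraries, an order held by 0.168% of genes. These are orders of libraries, with no test. The means of TLI DC3 of batch 1 were 17.0 times those of untreated DC3 for Ncr1, 10.9 times for Eomes, 6.41 for Nkg7, 5.97 for Klrb1c, 5.93 for Gzma, 5.43 for Klre1 and 3.09 for Klrd1. Read as shares of a gene's CPM summed over the 23 libraries, the 2 TLI DC3 libraries of batch 1 held 84.3% for Ncr1, 73.5% for Eomes, 61.9% for Nkg7 and 17.2% for Klrd1. In such bulk samples, fewer cells of a type and less RNA per cell cannot be told apart.

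Levels of different genes can be compared once divided by exon length (CPM per kilobase). In untreated DC3 the order of the means was Nkg7 at 143, Gzma at 125, Gzmb at 44.3, Klrd1 at 37.7 and Ncr1 at 27.8 CPM per kilobase, then Klre1 at 2.98, Klrb1c at 2.47 and Eomes at 0.281. Gzma, at 213 and 37.4, and Gzmb, at 73.9 and 14.6, spanned their neighbours in that order, whereas Nkg7 was at 154 and 131. In TLI DC3 of batch 1 the leading means were Nkg7 at 916, Gzma at 743 and Ncr1 at 472 CPM per kilobase, and these 3 overlapped.

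The TLI libraries allowed a test that no untreated DC3 library enters, that of batch 2 against batch 1 over the 4 gates. Batch is a contrast between pools, 2 against 2, while the fit takes the 15 libraries as separate samples, so its p-values leave the shared pools out of account. In this fit 8 of 10 members fell by the quasi-likelihood test of edgeR, adjusted over 16400 genes by Benjamini and Hochberg's method, against 8.95% of all genes tested, and 0 rose, where 9.86% of all genes did. The receptors Ncr1 (adjusted p = 0.00451) and Klrb1c (0.00393), all 4 granule genes, Nkg7 (0.0115), Prf1 (0.0481), Gzma (0.0194) and Gzmb (0.0127), and both factors, Eomes (0.0339) and Tbx21 (0.0156), were lower in batch 2. Klre1 (log2 fold change -1.75, SE 1.12, adjusted p = 0.305) and Klrd1 (-0.64, SE 0.40, adjusted p = 0.300) did not pass. The median over all genes was -0.26 on the log2 scale. With counts summed per pool over DC1a, DC1b and DC3, a setting chosen after seeing the data, edgeR called 0 members and 0 genes at all, with 6 of 9 members tested at an unadjusted p under 0.05, and the 7 called members tested there kept a negative value, at adjusted p of 0.0991 (Nkg7 and Gzma) to 0.318 (Gzmb). The calls are therefore on libraries and were not obtained on pools.

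The size is best read from the levels, since fitted folds against libraries at 0 depend on the fit. Ncr1 ran from 9.95 to 1112 CPM, median 38.3, in the 7 libraries of batch 1 and from 0 to 5.73 CPM, median 0, in the 8 of batch 2. It was the only member without overlap between the batches, 1 of 10 where 1.55% of genes had no overlap with batch 1 higher. Nkg7 ran from 31.3 to 1304 CPM, median 125, against 0 to 48.9 CPM, median 11.1. Gzma ran from 24.0 to 1330.1 CPM, median 85.7, against 0 to 34.7 CPM, median 0.0595. Gzmb ran from 3.10 to 136 CPM, median 24.5, with 0 in 7 of 8 libraries of batch 2. Klrb1c ran from 0.147 to 68.1 CPM against 0 to 0.914 CPM, and Klrd1 from 9.63 to 246 CPM against 3.99 to 159.9 CPM. The batches overlapped for Nkg7, Gzma, Gzmb, Klrb1c and Klrd1 alike.

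The count rested on few libraries. It was 4 (Ncr1, Klrb1c, Nkg7 and Eomes) without DC2 of pool 1 and 5 without DC1a of pool 2, and between 6 and 8 without any other library. The call on Prf1 was lost in 13 of the 15 fits that left out 1 library, that on Eomes in 7 and that on Tbx21 in 3. Those on Gzma and Gzmb were lost in 1 each, and those on Ncr1, Klrb1c and Nkg7 in 0. Without all 4 libraries of pool 1 it was 1 (Ncr1), and without the 4 DC3 libraries 2 (Ncr1 and Klrb1c), both settings chosen after seeing the data. The 4 DC3 libraries alone gave 0 by edgeR, with 7 of 9 members tested at an unadjusted p under 0.05 and 0 genes called at all. Batch 1 holds pools 1 and 2 and batch 2 pools 3 and 4, so the batch and the mice cannot be told apart.

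**Figure D2:**
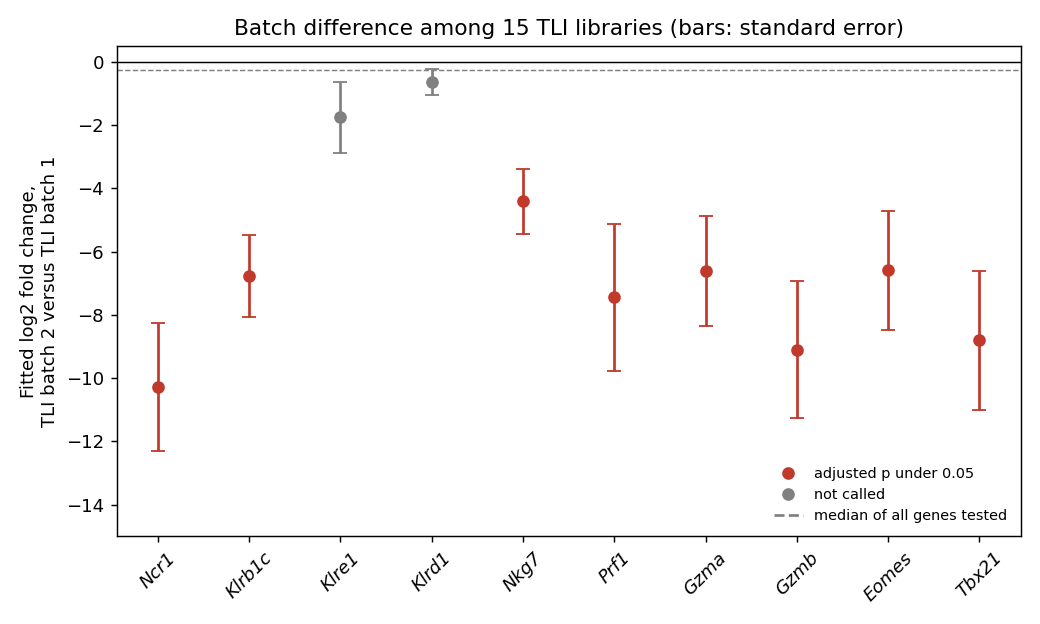
Fitted log2 fold change of TLI batch 2 against TLI batch 1 for each of the 10 genes, fitted over 15 libraries as separate samples, with bars of 1 standard error; the dashed line is the median of all genes, -0.26. The 8 called genes lie between -4.41 (Nkg7) and -10.28 (Ncr1), values that for genes at 0 in batch 2 are not sizes; Klre1 and Klrd1 are not called.

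Whether the genes differed between gates after TLI was tested with batch in the fit. DC3 against DC1a gave 1 of 10, Klrd1, higher by 3.67 on the log2 scale (SE 0.58, adjusted p = 0.00980, edgeR), against 0.341% of genes higher. It was higher in all 4 pools, with DC3 at 52.3 to 246 CPM and DC1a at 3.99 to 10.9 CPM. The call was lost without DC1a of pool 4, and within batch 1 alone (3.75 on the log2 scale) or batch 2 alone (3.61) it was not called. DC3 against DC1b gave 0 of 10 in edgeR, 2 at an unadjusted p under 0.05, and 3 in DESeq2 (Klrd1, Gzma and Gzmb). DC3 against DC2 gave 0 of 10 in edgeR, 3 at an unadjusted p under 0.05, 1 in DESeq2 (Nkg7), 1 with the pool as a block (Tbx21) and 1 without DC1b of pool 3 (Nkg7). Of all genes, edgeR called 1.02% and 1.21% in these 2 comparisons. DESeq2 called more genes in both, so these shares do not apply to its counts of members. The fit with 1 batch term for all gates does not give Ncr1 its order within batch 1, since its only batch 2 count was in DC1a: its fitted value for DC3 against DC1a was -2.25 (SE 2.41, adjusted p = 0.928), while in pool 1 and in pool 2 DC3 was the higher library.

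Within a pool of TLI batch 1, the other gates held a small part of the DC3 level for most of the genes. In pool 1, Ncr1 in DC1a, DC1b and DC2 was 5.52%, 3.44% and 0.895% of its DC3 level, Nkg7 8.45%, 20.4% and 2.40%, and Gzma 6.45%, 3.83% and 10.7%. In pool 2, Ncr1 in DC1a and DC1b was 10.7% and 9.82%, Nkg7 28.2% and 33.9%, and Gzma 41.4% and 14.6%. Over the members above the floor in DC3, the median was 6.45%, 18.3% and 2.40% in DC1a, DC1b and DC2 of pool 1, and 15.9% and 14.7% in DC1a and DC1b of pool 2. For T cell markers the same medians were 34.2%, 62.5% and 28.4%, then 80.5% and 45.8%. For erythroid markers they were 90.3%, 46.0% and 35.2%, then 126% and 119%. In each of the 5 libraries the members counted had a lower median than these 2 lists. They were 9 genes in pool 1 and 10 in pool 2. Tbx21 was left out in pool 1, where it read 0.142 CPM in DC3 and 15.6 CPM in DC2. The members were also chosen in part for their level in untreated DC3. For the wider list of natural killer genes described further on, the medians were 10.3%, 40.5% and 22.6%, then 38.3% and 46.0%, and the last is not below that of the T cell markers. These are descriptions of 5 libraries that share their pool's DC3 library as the denominator.

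**Figure D3:**
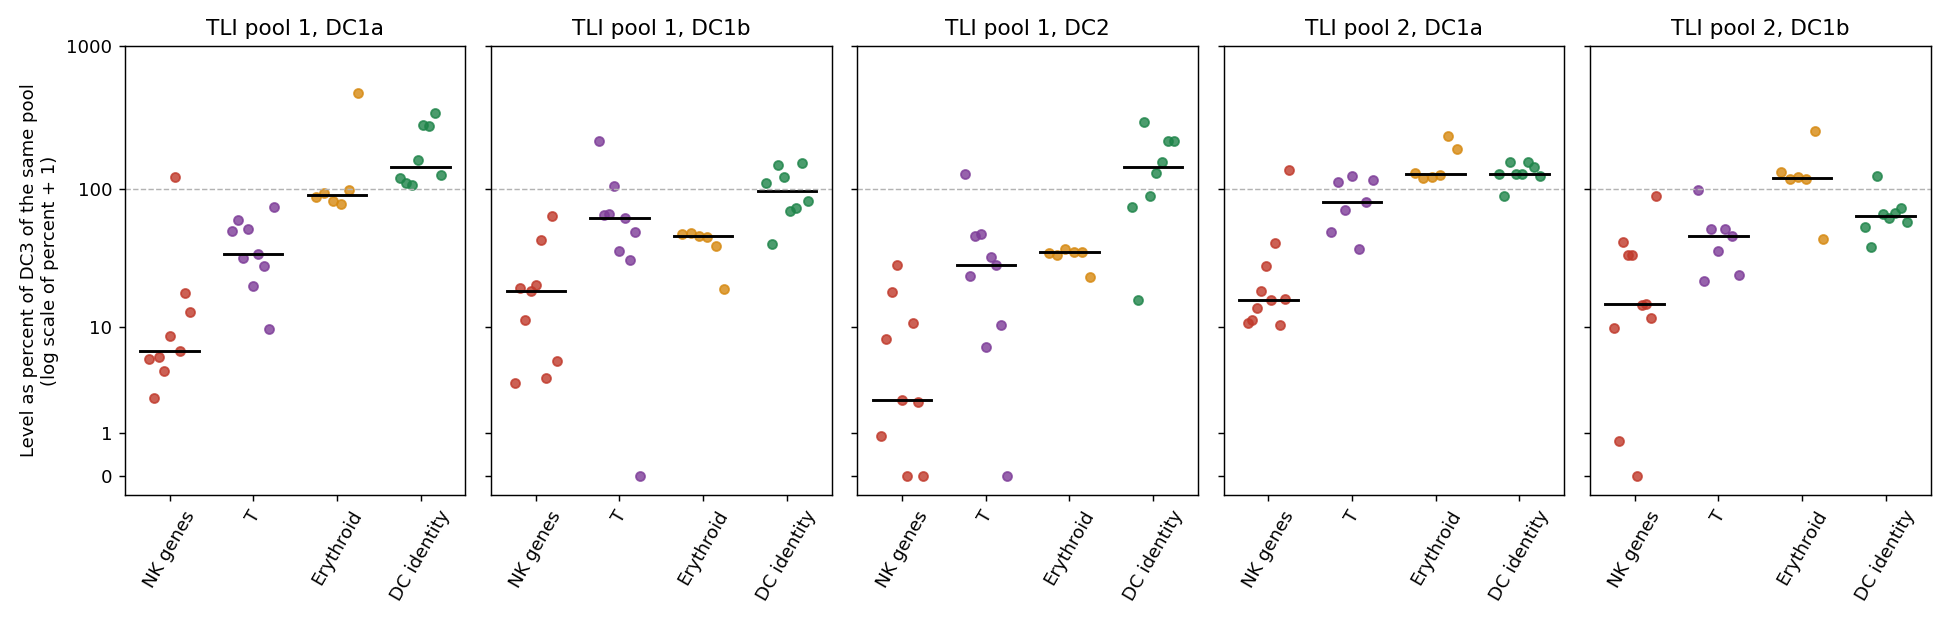
Level of each gene in DC1a, DC1b or DC2 as a percent of its level in DC3 of the same TLI batch 1 pool (log scale of percent + 1), for the 10 natural killer genes, T cell markers, erythroid markers and dendritic cell identity genes above the floor in that DC3 library. Points are genes, black bars medians and the dashed line 100 percent. The medians of the natural killer genes shown, 9 in pool 1 (without Tbx21) and 10 in pool 2, lie between 2.40% and 18.3%.

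TLI against untreated mice was tested in the gates other than DC3, with the 2 untreated DC3 libraries left out. In DC1a, DC1b and DC2 edgeR called 0 of 10 members, with 8, 7 and 6 at an unadjusted p under 0.05, and called 0.0104%, 0.369% and 0.0468% of 19244 genes. DESeq2 called 5 in DC1a (Ncr1, Klrd1, Nkg7, Gzma and Gzmb), 3 in DC1b (Klrd1, Nkg7 and Gzmb) and 4 in DC2 (Ncr1, Klrb1c, Nkg7 and Gzmb). With no filter edgeR called 3, 4 and 1. The shares of all genes above belong to edgeR with its filter only. DESeq2 called more genes in every comparison, and its counts and the unfiltered ones have no such share beside them here. For the DESeq2 calls other than Klrd1, the levels behind them were the near-zero counts of untreated mice and the batch 1 values given above. Klrd1 in DC1a read 2.44 and 2.51 CPM untreated and 3.99 to 10.9 CPM after TLI. Nkg7 in DC1a read 0.174 and 0 CPM untreated, then 110.2, 105, 18.6 and 3.59 CPM after TLI, with no overlap. Ncr1 in DC1b read 0 and 0.160 CPM untreated, 38.3 and 33.4 CPM in TLI batch 1, and 0 in both batch 2 libraries, so the groups overlapped. Klrd1 in DC1b went the other way, with both untreated libraries above all 4 TLI libraries; its fitted difference was -2.84 (SE 0.63, adjusted p = 0.0692). Tests of a difference of the TLI effect between gates called 0 of 10 in each of 3 comparisons by edgeR, with 2 (DC1b minus DC1a), 1 (DC2 minus DC1a) and 2 (DC2 minus DC1b) members at an unadjusted p under 0.05 and 0.00520%, 0.0260% and 0.0676% of all genes called; DESeq2 was not run on these.

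Among the untreated gates other than DC3, only Klre1 and Klrd1 passed the filter on low counts, in a fit of 6 libraries and 15785 genes. Klrd1 was higher in DC1b than in DC1a by 6.41 on the log2 scale (SE 0.57, adjusted p = 0.0256, edgeR), where 0.811% of genes were higher. It was higher in DC2 than in DC1a by 4.59 (SE 0.52, adjusted p = 0.0296), where 0.995% of genes were higher. DC2 against DC1b, where 0.285% of genes were called, did not pass (-1.82, SE 0.46, adjusted p = 0.181), and Klre1 passed in none. Both calls on Klrd1 were lost with the pool as a block and without any 1 of the 6 libraries, where their direction was kept.

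Among themselves the members moved together to differing degrees. Over the 23 libraries, the Pearson correlation of a gene's log2 CPM with the mean of the other 9 was 0.913 for Ncr1, 0.896 for Klrb1c, 0.852 for Gzmb, 0.833 for Gzma, 0.811 for Eomes, 0.749 for Nkg7, 0.651 for Prf1 and 0.561 for Klre1. It was 0.318 for Tbx21 and 0.144 for Klrd1. The highest pair was Nkg7 with Gzma, at 0.892. Libraries share pools, batches and many values at 0, so these describe the 23 libraries only. The make-up of the signal also differed: of the members' summed CPM, Ncr1 made up 25.8% and 30.9% in TLI DC3 of pools 1 and 2, 6.31% and 16.6% in untreated DC3 and 0 in TLI DC3 of pools 3 and 4. Klrd1 made up 57.3% and 44.9% in the latter 2 libraries, against 4.75% to 15.4% in the other 4 DC3 libraries.

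A wider list of 78 natural killer genes, with 34 receptors, 11 adaptors and kinases, 21 effectors and 12 factors, showed which parts of the programme accompanied the members. In batch 2 against batch 1 of TLI, 65 were tested, 23 fell and 1 rose, beside 8.95% and 9.86% of all genes, with a median of -1.88 beside -0.26 for all genes. These calls too are on libraries, and with counts summed per pool 0 genes were called at all. Of 28 receptors tested 10 fell, among them Klrg1, Klra7, Klrc3 and Klrc2 with adjusted p of 0.0219, 0.00689, 0.00253 and 0.000314 (edgeR). Klrc1, the NKG2A partner of CD94, ran from 5.02 to 135.9 CPM in batch 1 and from 0 to 0.378 CPM in batch 2. Of 11 adaptors and kinases 5 fell, with Cd247, Sh2d1a, Lck and Zap70 leading, and Fcer1g, the Fc receptor gamma chain, rose by 0.65 (SE 0.21, adjusted p = 0.0444). Of 16 effectors 7 fell, led by Ifng, which encodes interferon gamma and ran from 1.91 to 86.2 CPM in batch 1 with no count in batch 2 (adjusted p = 0.00176). Of 10 factors 1 fell, a share near that of all genes; it was Nfil3, a factor required for natural killer development (-3.06, SE 0.64, adjusted p = 0.00679).

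In DC3 against DC1a after TLI, 4 of the 65 rose, beside 0.341% of all genes, and 0 fell. These were Fcer1g (3.00 on the log2 scale, adjusted p = 0.000484, edgeR), Cd7 (3.39, adjusted p = 0.00412), Cd244a (2.89, adjusted p = 0.00102) and Sh2d1b1 (4.54, adjusted p = 0.0152), the last 2 a receptor and an adaptor of one signalling family. The same 4 were called higher in untreated DC1b than in untreated DC1a and in untreated DC2 than in untreated DC1a, as Klrd1 was, beside 0.811% and 0.995% of all genes. Of the 50 of the list tested there, 6 were higher and 1 lower (Id2) in DC1b. In DC2 5 were higher and 2 lower (Id2 and Serpinb6b). Of all 15785 genes, 160 and 282 were called in either direction. With the pool as a block these calls were lost, as 0 genes were called in either comparison. Against DC1b 3 of the 65 were lower in TLI DC3 (Fcgr3, Fcer1g and Srgn), and against DC2 2 (Fcgr3 and Fcer1g), with 0 higher in each, beside 1.02% and 1.21% of all genes called in either direction. Between TLI and untreated mice 0 of 68 tested passed in DC1a, DC1b or DC2 by edgeR, with 16, 16 and 14 at an unadjusted p under 0.05; this list was not counted with DESeq2.

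The most abundant genes of the wider list in untreated DC3 were mostly ones that the other gates held too. Tyrobp, the adaptor DAP12, read 1422 and 1802 CPM in untreated DC3, against 1076 to 8823 CPM in the other untreated libraries. Klrk1, the receptor NKG2D, read 271 and 153 CPM, against 63.7 to 391 CPM. Id2, a factor of innate lymphocytes and of CD8+ dendritic cells, read 2549 and 2308 CPM, against 472 to 2986 CPM. None of these 3 set untreated DC3 apart. In all, untreated DC3 was above the 6 other untreated libraries for 3 of 34 receptors, 0 of 11 adaptors, 1 of 21 effectors and 1 of 12 factors, beside the 6.03% of all genes. TLI DC3 of batch 1 was above all 21 other libraries for 9 of 34 receptors, 5 of 11 adaptors, 4 of 21 effectors and 0 of 12 factors, beside 0.592%. Among them were Klrc1 at 135.9 and 25.9 CPM, Il2rb, a chain of the receptor for interleukins 2 and 15, at 34.96 and 80.9 CPM, and the chemokine gene Xcl1 at 464 and 74.6 CPM. In untreated DC3, Il2rb read 0 and 1.65 CPM, Klrc1 0 and 0.509 CPM, and Ifng 1.59 and 0 CPM.

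Among the 10 genes with the pattern most like the members' mean, of 14055 ranked over the 23 libraries by Pearson r of log2 CPM, were Xcl1 (0.908), Ifng (0.900), Skap1 (0.898), Gimap7 (0.895), Gimap3 (0.892), Trbc1 (0.886), Trbc2 (0.875), Cd2 (0.866) and Gimap5 (0.858). Trbc1 and Trbc2 are the constant parts of the T cell receptor beta chain, and Skap1 acts in T cell signalling. Without the 2 untreated DC3 libraries these r were between 0.851 and 0.949, and without the 4 DC3 libraries of batch 1 between 0.799 and 0.931.

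Markers of T cells and erythroid cells were lower in TLI batch 2, as most members were. The part of other cells in the results was not tested. In the batch fit on libraries, 0 of 5 B cell, 0 of 7 plasmacytoid dendritic cell and 1 of 7 neutrophil markers tested fell. Of markers of innate lymphoid cells other than natural killer cells 2 of 6 fell, and of monocyte and macrophage markers 4 of 8. The 11 T cell markers summed to 99.97 to 649 CPM in TLI batch 1, 4.04 to 39.0 CPM in TLI batch 2 and 0.104 to 55.6 CPM in untreated mice. In untreated DC3 the sum was 20.8 and 55.6 CPM, against 0.104 to 25.6 CPM in the other untreated libraries, and 4 and 5 of the 11 were above the floor. Trbc1 read 8.33 and 45.003 CPM there and at most 0.200 CPM in the other untreated libraries, Trbc2 read 11.1 and 0 CPM against at most 0.160 CPM, and Cd3d read 0.865 and 10.1 CPM against at most 5.46 CPM. The defining genes Cd3e and Trac, and Themis, were at 0 in both libraries. The members summed to 557 and 303 CPM in these 2 libraries. In TLI DC3 of batch 1 Trac read 52.5 and 16.1 CPM. Of the T cell markers 7 of 11 fell in batch 2 against batch 1 after TLI (Trac, Trbc2, Cd3e, Cd3g, Trbc1, Lat and Cd5), beside 8.95% of all genes. These calls are by the fit on libraries and were not obtained on counts summed per pool.

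The 6 erythroid markers, among them the globin genes, summed to 19288 to 133558 CPM in TLI batch 1, 143 to 7144 CPM in batch 2 and 56.3 to 2276 CPM in untreated libraries. Of these markers 5 of 6 fell in batch 2, beside 8.95% of all genes, again by the fit on libraries and not on counts summed per pool. The DC3 library with the most erythroid reads, pool 1, was also the one with the most Ncr1, Nkg7 and Gzma, while untreated DC3 read 147 and 56.3 CPM. But TLI DC3 of pool 2 had the lowest erythroid sum of TLI batch 1, 19288 CPM, and the next highest Ncr1, 340 CPM. TLI DC1a of pool 1 had an erythroid sum of 112288 CPM with Ncr1 at 61.4 CPM. Markers of innate lymphoid cells other than natural killer cells summed to 27.0 and 54.4 CPM in untreated DC3, to 217 and 222 CPM in untreated DC1b and to 58.7 and 127 CPM in TLI DC3 of batch 1. Neutrophil markers were at 0 in untreated DC3, 7 of 7. B cell markers summed to 134 and 340 CPM in untreated DC3 and to at most 152 CPM in the other untreated libraries. Plasmacytoid dendritic cell markers summed to 191 and 230.3 CPM in untreated DC3 and to 5656 and 7953 CPM in untreated DC1b, the gate where Klrd1 was highest. Dendritic cell identity genes summed to 36115 and 47956 CPM in untreated DC3. In TLI DC3 they summed to 33782 and 87601 CPM in batch 1 and to 17460 and 19967 CPM in batch 2. Of these 8 genes 6 also fell in batch 2 against batch 1 after TLI (H2-Eb1, Cd74, H2-Ab1, Flt3, H2-Aa and Ciita), by the fit on libraries, beside 8.95% of all genes. Of 7 DC1 markers 1 fell (Cadm1) and of 6 DC2 markers 0, by the same fit. What lies behind these falls was not tested.

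**Figure D4:**
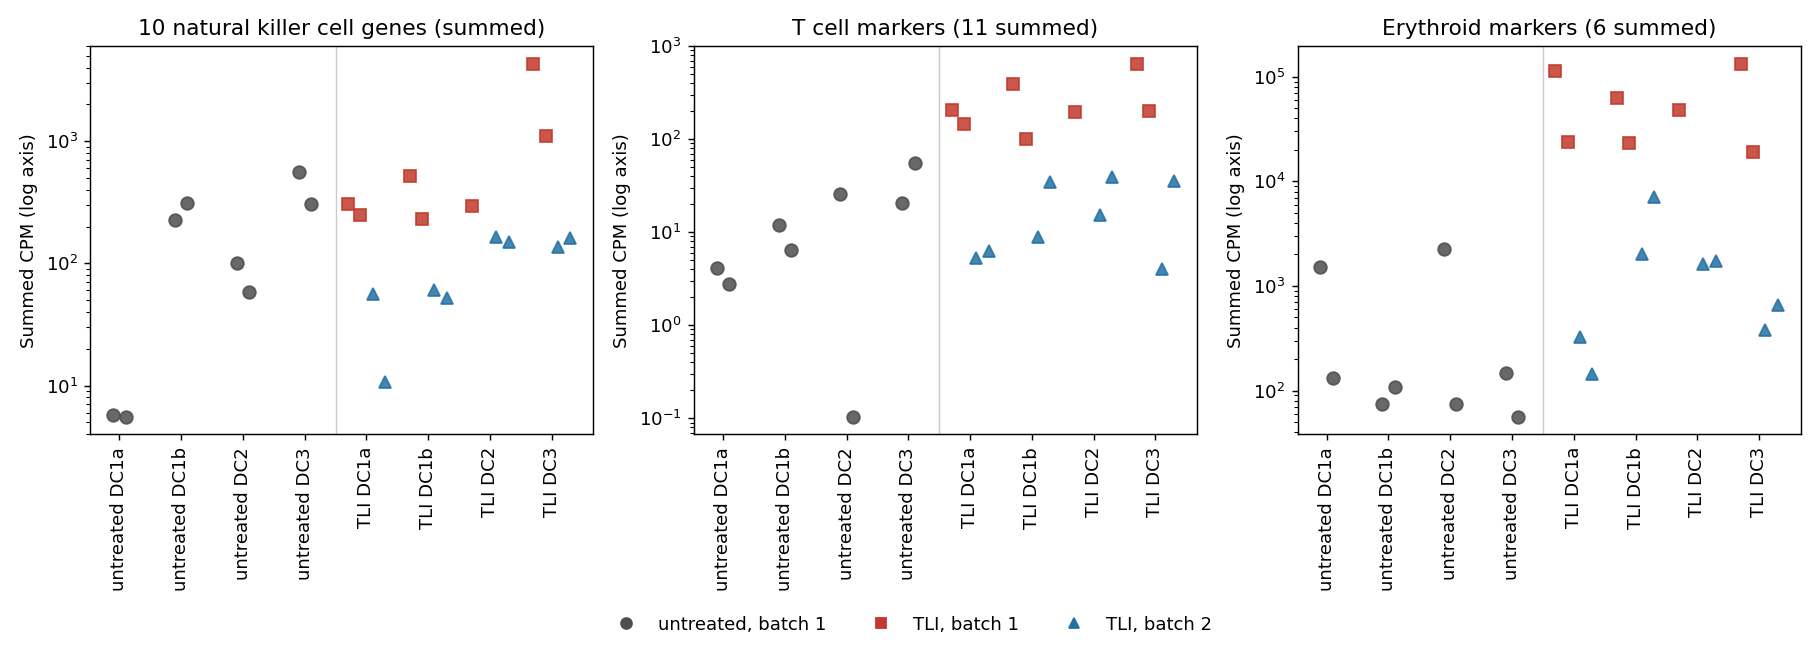
Summed CPM (log axis) of the 10 natural killer genes, 11 T cell markers and 6 erythroid markers in each of the 23 libraries, by treatment and gate, with shapes for treatment and batch. The members are highest in TLI DC3 of pool 1, while the T cell sums of all 7 TLI libraries of batch 1 lie above every other library; untreated DC3 of pool 2, at 55.6 CPM, has the highest T cell sum of the other libraries, and untreated DC3 has erythroid sums of 147 and 56.3 CPM.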

How the data were processed

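RNA-seq libraries were made from sorted spleen dendritic cells with a low-input kit. Adaptors were trimmed with Trimmomatic and reads aligned to GRCm38 with HISAT2. The authors deposited estimated counts per gene from StringTie and its script. The deposited values were whole numbers and were used as they stand in edgeR. Of 47729 genes, 47224 had a symbol. BALB/c reads were aligned to a reference of another strain.

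CPM used column totals. Tests used edgeR 4.0.16 in R 4.3.3, the quasi-likelihood test with TMM scaling, the default filter on low expression, batch as a term where both batches entered, Benjamini-Hochberg adjustment over all genes tested and a threshold of 0.05. There were 15 TLI libraries in 1 fit, 21 libraries without untreated DC3 in another, and 6 untreated libraries in the last. The pool number marks 1 pool of mice within a treatment, so gates of a pool are paired; correlations of same-pool deviations over genes were 0.0525 to 0.152 in TLI batch 1, -0.0178 to 0.0167 in batch 2 and -0.00700 to 0.0149 untreated. Alternatives were DESeq2 1.42.0, other scalings and filters, pool as a block, counts summed per pool (TLI batches), batches alone and each library left out. The test was checked on simulated data. Pandas 2.3.3 and matplotlib 3.10.9 were used in Python 3.11.15. Motifs were searched in 250 bases.

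Members, lists and tests were chosen with earlier results of these data known. Every member is named. From the wider list, the rule took the 4 genes of each role with the highest mean CPM in untreated DC3 and up to 4 a role past the threshold in a comparison, and the 10 nearest genes by r, among genes with a mean of at least 1 CPM on a log2 scale with a prior count of 2. One of these is not reported here. Genes named outside this rule (Klrc1, Il2rb, Ifng as levels and the marker genes) were chosen after their values were seen.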

Additional observations from a re-analysis of the deposited data

Results flagged for a closer look

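In the 30 groups of 4 TLI libraries examined (10 genes in DC1a, DC1b and DC3), 10 had a library whose gap to its nearest neighbour took up most of the range by Dixon's criterion. The rate of about 1 in 20 that chance gives for samples of one population does not apply here, since each group holds 2 libraries of each batch and in several of them the lower values are 0. All 10 were the highest library of their group, and all were of batch 1.

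In TLI DC3, pool 1 stood apart for Gzma at 1330.1 CPM (the other libraries 14.02 to 164 CPM), for Klrd1 at 246 CPM (52.3 to 78.1 CPM) and for Klre1 at 95.0 CPM (5.78 to 18.1 CPM). Pool 2 stood apart there for Prf1 at 28.7 CPM (0 to 4.83 CPM) and for Tbx21 at 7.42 CPM (0 to 0.142 CPM). In TLI DC1b, pool 1 stood apart for Klrd1 at 45.1 CPM (16.7 to 20.5 CPM), for Klrb1c at 13.2 CPM (0 to 0.147 CPM) and for Prf1 at 2.08 CPM (0 to 0.305 CPM), and pool 2 for Tbx21 at 6.64 CPM (0 in the others). In TLI DC1a, pool 2 stood apart for Tbx21 at 10.1 CPM, with 0 in the others.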

How the results depend on the processing

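Of 215 counts of called members over 10 comparisons under other settings, 177 stayed within 1.5 times the reported count and 38 moved. Where the reported count was 0, a count stayed only by being 0 again, so the 177 do not measure how firm the calls were. No reported member changed direction in a comparison where it was called. DESeq2, which called 795 genes where edgeR called 104 in TLI DC3 against DC1a, and more in every comparison, gave 2 members there, 3 against DC1b, 1 against DC2, 5, 3 and 4 for TLI against untreated DC1a, DC1b and DC2, and 1 for untreated DC2 against DC1b. With no filter edgeR gave 1 for TLI DC3 against DC2 and 3, 4 and 1 for TLI against untreated in DC1a, DC1b and DC2. A fit of 23 libraries gave 1 in DC1b (Klrd1). Within batch 1 alone and within batch 2 alone, TLI DC3 against DC1a gave 0. For batch 2 against batch 1, DC3 libraries alone gave 0, the libraries without DC3 gave 2, those without pool 1 gave 1 and counts summed per pool over DC1a, DC1b and DC3 gave 0, with 0 genes called at all. With the pool as a replicate block, TLI DC3 against DC2 gave 1 (Tbx21), and both untreated comparisons that called Klrd1 gave 0, with 0 genes called at all; the block changed no other count.

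With 1 library left out, counts ran from 0 to 1 for TLI DC3 against DC1a, 0 to 0 against DC1b, 0 to 1 against DC2 (1 without DC1b of pool 3), 4 to 8 for the batches, 0 to 0, 0 to 1 (1 without DC3 of TLI pool 1) and 0 to 0 for TLI against untreated DC1a, DC1b and DC2, and 0 to 0 for each untreated comparison. A gate left with 1 library was assumed to vary like the others. The members' summed CPM in untreated DC3, 430.2 on average, was 303 and 557 by pool. TLI and untreated pools are different mice and were not paired. The causes of these moves were not tested.

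Depth limits what a level of 0 means to 0.0811 to 0.156 CPM. With 2 pools a group and zeros in many libraries, a missing call is no sign of equal levels.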
